A study of Mus musculus with 4 samples.

Results

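Ribosome profiling (Ribo-seq) reads on long noncoding RNAs (lncRNAs) were examined in primary mouse myoblasts. The genes were chosen by their measured reads: a gene classed as lncRNA in the deposited table was taken when it held at least 20 reads summed over all 4 libraries. A total of 102 genes passed, of 10209 lncRNA genes and 55573 genes in the table, and 1882 lncRNA genes had any read at all. One more lncRNA gene with enough reads, on chromosome 12, was not analysed here. Because the sum of reads chose the genes, that sum is a description, and the difference between groups was not used in the choice.

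Myoblasts, the dividing progeny of muscle stem cells, were isolated from hind-limb muscle of 3-week-old mice and grown to Day 2 as proliferating cells with FGF, in both groups. One group was wild type (WT) and the other was labelled eIF5A knockout (KO), a genotype in which Pax7-CreERT2, a tamoxifen-inducible recombinase made in muscle stem cells, deletes floxed eIF5A, a translation factor. The study describes its WT controls in more than one way (mice with the recombinase alone, or with the floxed gene alone), and no label says which these cells were. Each group had 2 libraries. The study calls its Ribo-seq a duplicate experiment, without saying whether the duplicates were separate mice or cultures, so that p-values measure only the spread between these libraries. All cells received cycloheximide, which stops elongating ribosomes, and RNase I digestion left the protected fragments that were sequenced.

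Long noncoding RNAs are transcripts without a recognised long protein-coding frame. Some stay in the nucleus, such as Malat1 in nuclear speckles and Neat1 in paraspeckles. Others are the spliced remains of host genes whose introns carry small nucleolar RNAs (snoRNAs), or hold short frames from which micropeptides are made. A read assigned to such a gene does not by itself show that the RNA is translated, and the table gives neither fragment lengths nor positions within a gene. No RNA level was measured in these libraries, so more ribosomes per RNA and more RNA cannot be told apart, and neither can fewer cells of a type and less RNA per cell.

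The libraries held between 642429 and 704006 reads. Eif5a, the targeted gene, had 50 and 73 reads in WT 1 and WT 2, and 130 and 114 in the KO-labelled pair. Its level was 34.9 and 65.2 RPKM (reads per kilobase of gene, on the scale the authors set for each library) in WT and 60.3 and 59.4 RPKM in the KO-labelled pair, so the targeted gene was not lower there, and the groups are named by label throughout. For muscle stem cells of its knockout mice, the study measured the loss of eIF5A by RT-qPCR and immunostaining and reports the knockout as established. The 9 myoblast markers together had 425, 198, 149 and 205 reads in WT 1, WT 2, KO 1 and KO 2, with Myf6 and Msc at 0 in both KO-labelled libraries. By level they summed to 311, 175, 68.5 and 108 RPKM, so both KO-labelled libraries lay below both WT libraries. The part of this difference in the lncRNA values was not tested. The 7 fibroblast markers had 1996, 906, 4774 and 1938 reads, the 5 endothelial markers 308, 232, 626 and 456, and the 5 immune markers 19, 17, 42 and 32, with Cd3e at 0. In summed level, the fibroblast and endothelial markers were higher in replicate 1 than in replicate 2 of each group. The sums were 458, 267, 763 and 338 RPKM for fibroblast markers and 106, 99.8, 139 and 112 RPKM for endothelial markers. Cdh5 made up most of each endothelial sum, and single markers did not all have this order. Kdr, Emcn and the fibroblast marker Thy1 were lower in WT 1 than in WT 2. Pecam1 was slightly lower in KO 1 than in KO 2. The summed immune markers did not have the order of the other sums, at 17.1, 25.6, 20.8 and 20.3 RPKM.

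The first sequences shown are from snoRNA host genes, because several such RNAs, Gas5 among them, are known to begin with a pyrimidine-rich start that couples an RNA to the translation machinery. RefSeq starts (GRCm38.p6) were found for 7 of the 9 host genes with enough reads. The first 30 bases from the start are given 5′ to 3′, with the first match to CTTT on the transcribed strand within 20 bases of the start in capitals. Where RefSeq had several starts, a start with a match was taken. Gas5 lies on chromosome 1 (161035166 to 161035195, plus strand), 1110038B12Rik on chromosome 17 (34952442 to 34952471, minus strand), Snhg15 on chromosome 11 (6528731 to 6528760, minus strand), Snhg5 on chromosome 9 (88522868 to 88522897, minus strand), Snhg1 on chromosome 19 (8723487 to 8723516, plus strand) and Snhg12 on chromosome 4 (132308678 to 132308707, plus strand).
Gas5: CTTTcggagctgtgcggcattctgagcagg
1110038B12Rik: ggtctCTTTgtgcacccgcccacacggttt
Snhg15: aaCTTTaagcacacgtgagcgtcctcagct
Snhg5: gggctcgttCTTTtacgacggagcctaaga
Snhg1: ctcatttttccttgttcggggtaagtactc
Snhg12: tttctcgcttcatccgcggtccctgtctgt
The letters CTTT were found in the window for 4 of the 7 host genes, for 9 of the 36 lncRNA genes described here that had a RefSeq start (25%). The share was 10.9% of the 3692 lncRNA genes of the whole table with a RefSeq start and 8.88% of all 27025 RefSeq genes. The match is a description of these windows and no site, and it does not mark a pyrimidine-rich start. It lay at base 6 in 1110038B12Rik and at base 10 in Snhg5, and both RNAs begin with G. Snhg12 begins with pyrimidines and had no match. Snhg1, Snhg12 and Zfas1 (not shown) did not hold these letters in the window. By single starts, 5 of 9 starts of host genes matched, against 9.28% of the 4614 starts of lncRNA genes and 7.57% of all 32851.

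The next sequence is shown because several of the lncRNA genes with many reads have stretches in common, so that a short read could come from more than one of them. Gm29408 is a gene of 1 exon and 216 bases on chromosome 9 (90938980 to 90939195, plus strand, GRCm38). In its GENCODE M21 transcript, the bases in capitals lie in runs of at least 28 bases that Gm26809, on chromosome 6, also holds.
Gm29408: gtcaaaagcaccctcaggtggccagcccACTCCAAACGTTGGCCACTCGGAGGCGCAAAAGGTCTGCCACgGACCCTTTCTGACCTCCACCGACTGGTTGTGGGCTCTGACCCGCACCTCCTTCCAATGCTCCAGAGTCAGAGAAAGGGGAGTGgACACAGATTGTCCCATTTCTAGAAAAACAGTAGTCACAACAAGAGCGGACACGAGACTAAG
These runs covered 186 of the 216 bases. Gm26809 also shared runs of up to 134 bases with Gm12840 and of up to 139 bases with AC160336.1, in both cases on opposite strands. Shorter runs were shared with Gm32856, of up to 38 bases by Gm26809 (opposite strands) and of up to 52 bases by AC160336.1 (same strand). Without Gm32856, the other 4 genes had 3202 reads, 15.1% of all reads on the 102 genes, and how the counting placed reads that match several genes was not stated. The values of each of these genes, Gm32856 included, are therefore uncertain. Gm47283 on chromosome Y and Gm21887 on chromosome X shared a run of 529 bases and carry the same doubt. Of the 102 genes, 45 had over 10% of their 28-base words in transcripts of other genes and 10 had none.

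The reads were concentrated on few genes. Together they had 21262 reads in all, with a median of 49.5 per gene. The 5 leading genes took 52.8% of these reads and the 15 leading genes 74.1%. At the other end, 51 genes had 20 to 49 reads, 6 had exactly 20 (among them Pvt1 and Gm13782), and 2 lncRNA genes with 19 reads (B230354K17Rik and Gm26646) lay just outside the threshold. By level, the median gene of the set had a mean of 9.47 RPKM, against 5.51 RPKM for the median of the 8730 protein-coding genes with at least 20 reads. The median annotated length was 2374.5 bases in the first set and 4951.5 in the second, and a threshold on reads favours long genes at low levels.

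As a share of the library, the 102 genes took 1.06% of reads in WT 1 (95% Wilson interval 1.04 to 1.09), 0.574% in WT 2 (0.556 to 0.593), 0.939% in KO 1 (0.917 to 0.962) and 0.625% in KO 2 (0.606 to 0.645). These intervals cover counting error only, since the reads carry no molecular identifiers. The means were 0.819% ± 0.346 (SD, n = 2) in the WT pair and 0.782% ± 0.222 (SD, n = 2) in the KO-labelled pair, and the exact permutation test, which with 2 against 2 libraries can reach 0.33 at the lowest, gave p = 1.0 (two-sided). Both replicate 1 libraries had a larger share than both replicate 2 libraries, and the groups overlapped. Per 100 reads on protein-coding genes and these lncRNA genes together, the lncRNA genes took 2.50 and 1.67 in WT and 1.42 and 1.04 in the KO-labelled pair, where protein-coding genes took a larger share of all reads (65.4% and 59.2%, against 41.5% and 33.9% in WT). On that base the groups did not overlap, and the exact p-value was the smallest the design allows, 0.33. Mitochondrial rRNA took 39.1% and 30.1% of reads in WT and 15.0% and 18.5% in the KO-labelled pair, and its part in either share was not tested. The mean was lower in the KO-labelled pair on both bases, and whether the groups overlapped depended on the base.

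**Figure D1:**
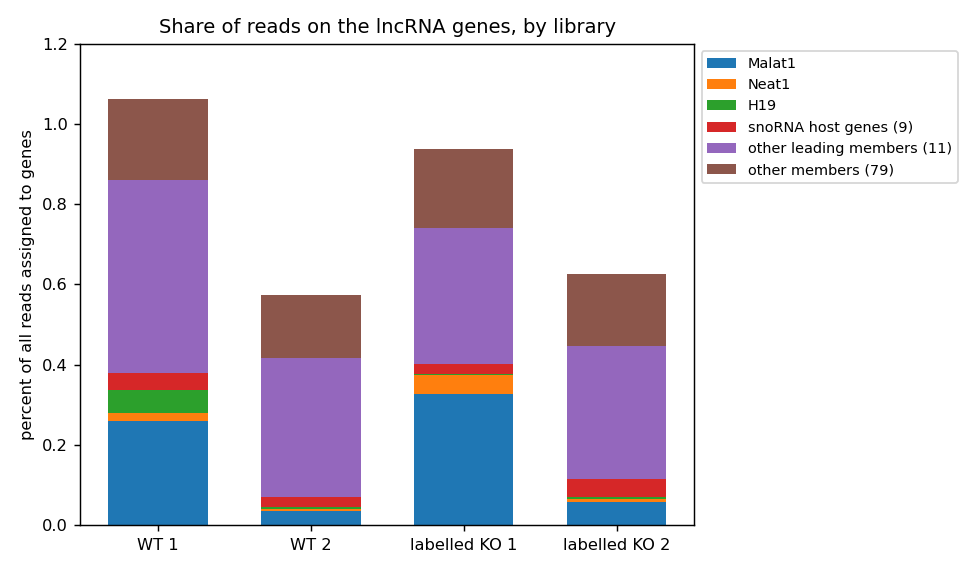
Stacked bars give the percent of all reads assigned to genes that fell on the 102 lncRNA genes in each library, split into Malat1, Neat1, H19, 9 snoRNA host genes, the other 11 genes of the leading 15 and the remaining 79. The replicate 1 bars reach 1.06% and 0.939% and the replicate 2 bars 0.574% and 0.625%, and the Malat1 block falls from 0.259% to 0.0347% between the WT replicates and from 0.327% to 0.0575% between the KO-labelled ones.

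Among nuclear lncRNAs, Malat1, Neat1 and Xist were higher in replicate 1 than in replicate 2 of each group. Malat1 (ENSMUSG00000092341, chromosome 19, 5795690 to 5802672, minus strand, GRCm38) had 1679 and 223 reads in WT 1 and WT 2, and 2299 and 374 in the KO-labelled pair. Its level was 399, 67.8, 363 and 66.3 RPKM in the same order. Both replicate 1 libraries were high and both replicate 2 libraries low, 5.88 times in WT and 5.47 times in the KO-labelled pair, and the groups overlapped. Malat1 held 24.3% and 34.8% of the lncRNA reads in the replicate 1 libraries of WT and KO and 6.05% and 9.20% in the replicate 2 libraries. The log2 difference between groups was -0.08 ± 0.96 (SE), 95% interval -2.27 to 2.11, limma adjusted p = 0.984. It ranged from -1.35 without WT replicate 2 to 1.19 without WT replicate 1, and was 0.53 when libraries were scaled to total reads.

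Neat1 (chromosome 19, 5824708 to 5845478, minus strand), the paraspeckle scaffold, had 134 and 37 reads in the WT pair and 337 and 45 in the KO-labelled pair. Again both replicate 1 libraries lay above both replicate 2 libraries, by 2.83 times in WT and 6.67 times in the KO-labelled pair. Xist, the RNA that coats the inactive X chromosome, had 12 and 3 reads in the WT pair and 46 and 11 in the KO-labelled pair. It was higher in replicate 1 of each group and also higher in the KO-labelled library of each replicate number, while the groups overlapped (log2 difference 0.62 ± 0.49, limma adjusted p = 0.677, from 0.06 without KO replicate 1 to 1.18 without KO replicate 2). The 4 Y-linked genes checked together had 30, 15, 73 and 57 reads, so reads from both Xist and the Y chromosome were present in each library. Tug1 had 28 and 13 reads in the WT pair and 22 and 21 in the KO-labelled pair, and both KO values, 2.49 and 2.67 RPKM, lay just below the lower WT value of 2.83 RPKM (log2 difference -0.39 ± 0.43, limma adjusted p = 0.761). Kcnq1ot1, an imprinted transcript of 93092 bases, had 7, 6, 16 and 2 reads and Pvt1 had 6, 1, 5 and 8. Of the 14 nuclear lncRNAs listed, these 6 had enough reads, and their median log2 difference was 0.06, with 3 below 0 and 3 above. In Malat1, Neat1 and Xist, as in the summed fibroblast and endothelial markers, replicate 1 was higher than replicate 2 in each group. Among single endothelial markers only Cdh5 and Tek had this order in both groups, and among single fibroblast markers all but Thy1 had it. The part of fibroblasts and endothelial cells in the lncRNA values was not tested. Over all 102 genes, both replicate 1 libraries lay above both replicate 2 libraries in RPKM for 22 (21.6%, beside 16.3% of all genes tested) and below both for 14 (13.7%, beside 15.0%).

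**Figure D2:**
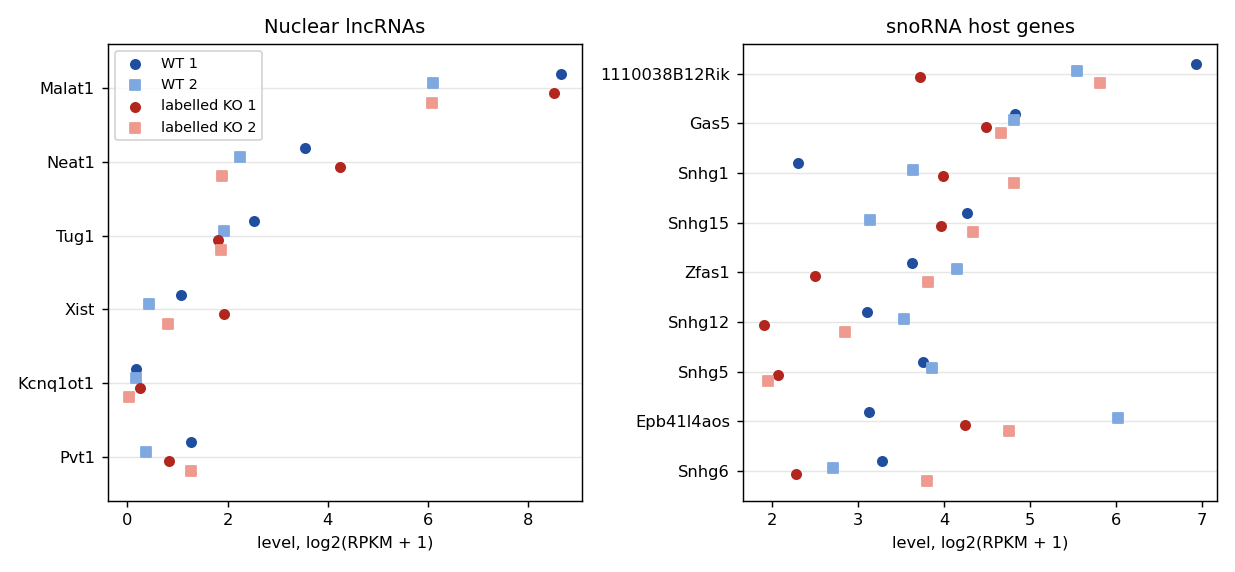
Points give the level, log2(RPKM + 1), of 6 nuclear lncRNAs (left) and 9 snoRNA host genes (right) in each of the 4 libraries, with circles for replicate 1, squares for replicate 2, blue for WT and red for the KO-labelled pair. Circles of both colours sit to the right of both squares for Malat1, Neat1 and Xist, while the host genes have no common order of libraries.

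The other leading genes were mostly unnamed gene models. Gm48617 (chromosome 12, 37049217 to 37147149, plus strand), classed in GENCODE as sense-intronic to a coding gene, had 1021 and 410 reads in the WT pair and 273 and 496 in the KO-labelled pair. In level it was second to Gm47389 among the leading 15, at 1217 ± 553 RPKM (SD, n = 2) in the WT pair and 435 ± 210 RPKM (SD, n = 2) in the KO-labelled pair. Both KO values lay below both WT values, with a log2 difference of -1.50 ± 0.68 (SE) and limma adjusted p = 0.537, and a range from -2.01 to -0.98 as each library was left out. Meox2, the coding gene whose span it overlaps on the same strand, had 7, 9, 17 and 13 reads, so the lncRNA had far more reads than its neighbour.

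Gm47389 (chromosome 10, 44715558 to 44717165, plus strand) held 262 and 538 reads in the WT pair and 292 and 302 in the KO-labelled pair. Its WT level was 1220 ± 774 RPKM and its level in the KO-labelled pair 539 ± 56.9 RPKM (SD, n = 2 each). The groups did not overlap in RPKM, but the log2 difference of -1.02 ± 0.70 ranged from -1.72 without WT replicate 1 to -0.32 without WT replicate 2. Gm26809 (chromosome 6, 18844220 to 18847360, plus strand) held 544, 347, 356 and 373 reads, and its log2 difference was -0.93 ± 0.50 (limma adjusted p = 0.567). Gm29408, which shares sequence with it, had 23 and 26 reads in the WT pair and 9 and 18 in the KO-labelled pair, and Gm12840 had 11, 13, 20 and 23. In RPKM the groups did not overlap for Gm26809 and Gm29408, both lower in the KO-labelled pair, and overlapped for Gm12840.

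AC160336.1 (chromosome 14, 44544055 to 44637201, minus strand), annotated as a single stretch of 93147 bases, had 424, 194, 498 and 323 reads, which at its length is only 4.29 to 7.55 RPKM. It is 4th by reads and the lowest by level of the leading 15. Gm26917 (chromosome 17, 39843013 to 39846341, plus strand) held 267 and 188 reads in the WT pair and 169 and 185 in the KO-labelled pair, with a level of 126 ± 9.31 RPKM against 62.4 ± 9.07 RPKM (SD, n = 2 each). Its groups were apart and its replicates close, with a log2 difference of -1.01 ± 0.45 and limma adjusted p = 0.536. The gene lies beside a gene annotated as ribosomal RNA, CT010467.1 (39846353 to 39848827, minus strand), which had 25, 19, 23 and 16 reads after the authors had removed rRNA reads. Whether reads of Gm26917 are of ribosomal RNA was not tested.

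Gm15965 (chromosome 16, inside Synj1 on the opposite strand) had 167, 92, 234 and 162 reads and a log2 difference of -0.03 ± 0.50. Gm42726 (chromosome 5, inside Ube2k on the opposite strand) had 102, 107, 159 and 102 reads and a log2 difference of -0.39 ± 0.49. Both had overlapping groups. The remaining leading genes were Gm48942 with 139, 92, 122 and 91 reads, 2010015M23Rik with 106, 35, 100 and 63, and Gm50062 with 52, 32, 157 and 54. In RPKM, Gm48942 did not overlap between groups (log2 difference -0.78 ± 0.50, limma adjusted p = 0.607), and the other 2 did.

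**Figure D3:**
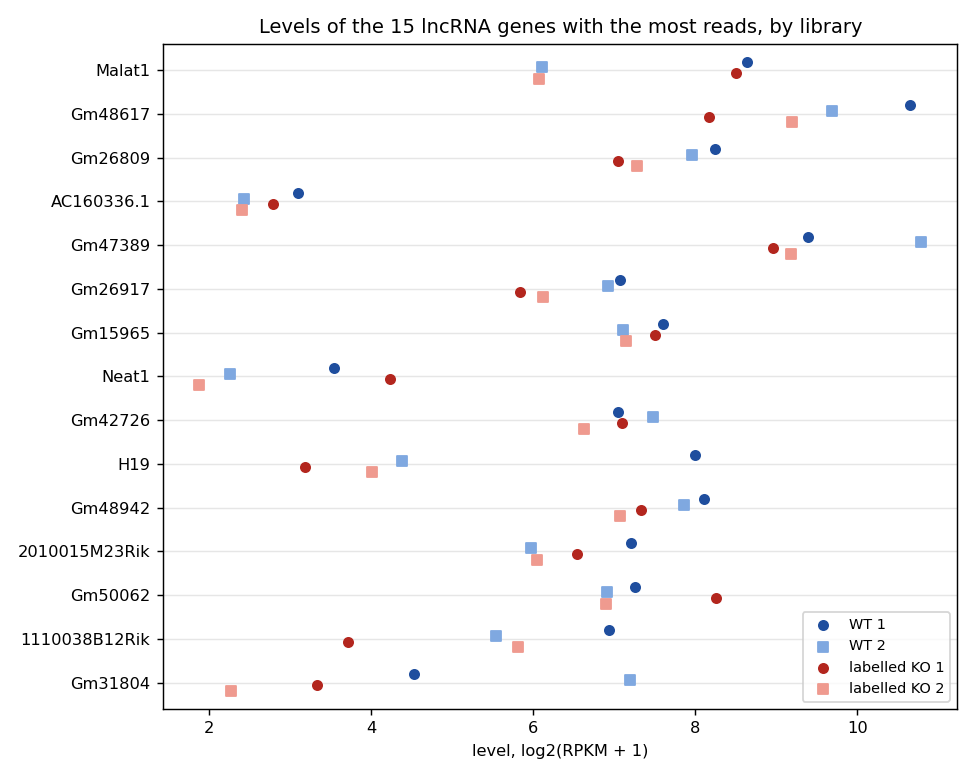
Points give the level, log2(RPKM + 1), of the 15 lncRNA genes with the most reads in each library, ordered from most reads (top), with circles for replicate 1 and squares for replicate 2. Both replicate 1 libraries lie above both replicate 2 libraries for Malat1, AC160336.1, Gm15965, Neat1, 2010015M23Rik and Gm50062. Both KO values lie below both WT values for Gm48617, Gm26809, Gm47389, Gm26917, Gm48942, H19 and Gm31804, the last 2 with 1 WT library far above the other 3.

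Imprinted and microRNA host genes included H19, with a single high library. H19 (ENSMUSG00000000031, chromosome 7, 142575529 to 142578143, minus strand), a maternally expressed RNA abundant in embryonic muscle that carries miR-675 in an exon, had 376 and 23 reads in the WT pair and 18 and 30 in the KO-labelled pair. Its level was 254 and 19.8 RPKM in WT and 8.07 and 15.1 RPKM in the KO-labelled pair. WT replicate 1 stood apart, and the other WT library lay close to the KO-labelled pair. The log2 difference was -2.59 ± 0.97 (SE), with limma adjusted p = 0.504, and it was -0.79 without WT replicate 1. Without WT replicate 2 it was -4.40. With all 4 libraries, the adjusted p-value of H19 was 0.214 in voom. It was 1.17e-07 in voom with a replicate block, a fit added after the data were seen. Myog, a marker of differentiating myoblasts, had 82, 3, 1 and 2 reads, with the same library high, and its part in the H19 value was not tested.

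Peg13, an imprinted gene within Trappc9, had 31 and 3 reads in the WT pair and 10 and 6 in the KO-labelled pair, also highest in WT replicate 1, with overlapping groups. Mir22hg (chromosome 11, 75461539 to 75466676, plus strand), the host gene of miR-22, had 16 and 10 reads in the WT pair and 5 and 6 in the KO-labelled pair. An exon of Mir22hg overlaps an exon of the coding gene Tlcd2 on the same strand, which had 11, 16, 14 and 27 reads. How reads on the shared bases were placed was not stated. The level of Mir22hg was 12.4 ± 1.95 RPKM in WT and 3.36 ± 0.704 RPKM in the KO-labelled pair (SD, n = 2 each), with no overlap between groups. The log2 difference came to -1.62 ± 0.42, unadjusted p = 0.00413 and limma adjusted p = 0.442, and it ranged from -1.79 to -1.46 as each library was left out. Of the 7 imprinted lncRNAs listed, 3 had enough reads (H19, Peg13 and Kcnq1ot1). The log2 difference of Peg13 was -0.85 ± 0.70, from -2.02 without WT replicate 2 to 0.32 without WT replicate 1, and that of Kcnq1ot1 was -0.03 ± 0.34. Of 14 microRNA host genes listed, 2 had enough reads (H19 and Mir22hg).

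The snoRNA host genes lay on both sides of 0. Of the 20 listed, 9 had enough reads, with 261, 162, 181 and 298 reads together, and their median log2 difference was -0.24, with 6 below 0 and 3 above. Gas5 (chromosome 1, 161034422 to 161038539, plus strand), whose RNA accumulates in growth-arrested cells, had 62 and 48 reads in the WT pair and 73 and 74 in the KO-labelled pair. Its level was 27.2 ± 0.181 RPKM in WT and 22.9 ± 2.09 RPKM in the KO-labelled pair (SD, n = 2 each). Both KO values lay below both WT values by little, and the log2 difference was -0.24 (95% interval -1.18 to 0.69). Snhg1 (chromosome 19, 8723475 to 8726443, plus strand) lay on the other side of 0, with 7 and 16 reads in the WT pair and 40 and 65 in the KO-labelled pair. Both KO values, 14.9 and 27.1 RPKM, lay above both WT values, 3.91 and 11.4 RPKM, and the log2 difference was 1.43 ± 0.55 (limma adjusted p = 0.505), from 0.76 without WT replicate 1 to 2.10 without WT replicate 2. Its coding neighbour Slc3a2, an amino acid transporter subunit transcribed from the other strand, had 140 and 180 reads in the WT pair and 435 and 382 in the KO-labelled pair, not scaled to the libraries.

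1110038B12Rik (chromosome 17, 34950238 to 34952471, minus strand), the host of Snord52, had 132, 39, 20 and 81 reads, with overlapping groups and a log2 difference of -1.47 ± 0.73, which was -0.42 without KO replicate 1 and -2.52 without KO replicate 2. Snhg5 had 13 and 11 reads in the WT pair and 5 and 4 in the KO-labelled pair, a log2 difference of -1.80 ± 0.41 with limma adjusted p = 0.442. Snhg12 had 11, 12, 6 and 12 reads and also had both KO values below both WT values in RPKM. Snhg15 had 15, 5, 18 and 21 reads and overlapped between groups.

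The snoRNAs themselves bear on how reads were counted. Within exons of the 102 genes lie 52 small RNA genes on the same strand, in 18 of the genes, and 51 of them were listed at 0 reads, among them all 10 in Gas5, all 8 in Snhg1, Snord52 and miR-675. Of 13 small RNA genes in introns of the set, 7 had reads. In the intron of 2410006H16Rik, Snord49a had 231, 24, 25 and 72 reads, and in the intron of Snhg6, Snord87 had 53, 63, 41 and 152. Where a small RNA lies inside an annotated exon of its host, the table thus mostly gave no reads of its own (the exception was Gm23201 in Zfas1, with 8 reads), and whether its reads were assigned to the host or dropped cannot be told apart.

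Annotation also differed between sources. All 102 genes matched GENCODE M21 by identifier, 98 with the same start and end, where 43 were lincRNAs, 25 processed transcripts, 20 antisense and 8 sense-intronic transcripts. GENCODE M21 or RefSeq classed 12 of them as protein-coding, with 712 reads or 3.35% of the lncRNA reads, among them U90926 and 1810058I24Rik. The 12 also held genes that are protein-coding in RefSeq and have long frames. These were Trerf1 (1225 codons), Zswim6 (1207), Spata5l1 (438), Ifi30 (248) and Tmem134 (180). The longest frame from ATG to a stop in any annotated transcript had a median of 84.5 codons over the 102 genes and reached 100 codons in 41. Of the genes, 26 lay whole inside a protein-coding gene and 23 had an exon facing a coding exon on the opposite strand. Whether counting used strand was not stated, so reads of such pairs cannot be assigned with certainty. On the same strand, 4 genes had an exon that overlaps a coding exon, Mir22hg among them, and carry the same doubt.

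1810058I24Rik (chromosome 6, 35252654 to 35263496, plus strand), which encodes the short mitochondrial peptide STMP1, had 17 and 29 reads in the WT pair and 25 and 35 in the KO-labelled pair. The groups overlapped, at 10.1 and 22.1 RPKM in WT and 9.90 and 15.6 RPKM in the KO-labelled pair. Lncpint, a p53-induced lncRNA, had 15 and 9 reads in the WT pair and 6 and 7 in the KO-labelled pair, with groups apart and a log2 difference of -0.96 ± 0.40 (limma adjusted p = 0.522). Of 16 genes listed for known micropeptides, 3 had enough reads as lncRNAs (1810058I24Rik, Tug1 and Lncpint), with a median log2 difference of -0.39. Of 8 lncRNAs listed for p53 or growth arrest, 6 had enough reads, 3 below 0 and 3 above, with a median of -0.04. Of 8 listed for muscle, 5 had enough reads (Malat1, Neat1, H19, Mir22hg and Pvt1) with a median of -0.08.

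The groups were then compared over all 9179 genes with at least 20 reads, using limma on log2(RPKM + 1). No lncRNA gene had an adjusted p under 0.05, where 0% of all genes tested were called, and the smallest adjusted p-value among the 102 was 0.220. That value was of Gm13782 (6 and 13 reads in the WT pair, 0 and 1 in the KO-labelled pair), which reached the threshold on reads almost only through the WT pair. Before adjustment, 18 lncRNA genes (17.6%) had p under 0.05, 15 of them lower in the KO-labelled pair and 3 higher, beside 9.43% of all genes tested. A change of at least 2-fold with p under 0.05 before adjustment was passed by 14 lower lncRNA genes (13.7%), beside 5.2% of all genes tested, and by 3 higher ones (2.94%), beside 3.72%. With each library scaled to its total reads, 7 lncRNA genes were lower (6.86%, beside 1.39% of all genes tested) and 7 higher (6.86%, beside 19.3%). On that scale 13.7% of lncRNA genes had p under 0.05 before adjustment in either direction, fewer than the 21.7% of all genes tested. Scaled to protein-coding reads, 19 were lower (18.6%, beside 6.41%) and 3 higher (2.94%, beside 2.59%). A voom fit on the recovered reads called 2 lncRNA genes lower, Gm26522 and Gm31804, where 0.414% of all genes were called lower, and 0 higher, where 0% were. In voom 21 lncRNA genes (20.6%) had an unadjusted p-value under 0.05, beside 10.0% of all genes tested.

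The median log2 difference of the 102 genes was -0.31, with 76 (74.5%) below 0, beside a median of 0.03 and 47.8% below 0 over all genes tested. Both KO values lay below both WT values in 30 lncRNA genes (29.4%), beside 20.8% of all genes tested, and above both in 6 (5.88%), beside 22.7%. These counts describe the genes that passed a threshold on reads, and a gene could pass through the reads of 1 group alone. Among the 81 genes with at least 10 reads in both groups, the median was -0.35, beside -0.01 over the 8051 genes tested that met the same limit. Both KO values lay below both WT values in 26 of the 81 (32.1%, beside 21.1%) and above both in 2 (2.47%, beside 20.3%). The 2-fold criterion was passed by 10 lower (12.3%, beside 4.35%) and 1 higher (1.23%, beside 2.35%). Scaled to total reads, the median was 0.14 for the lncRNA genes and 0.52 for all genes tested, so its sign depended on the scaling while it stayed below the median gene.

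**Figure D4:**
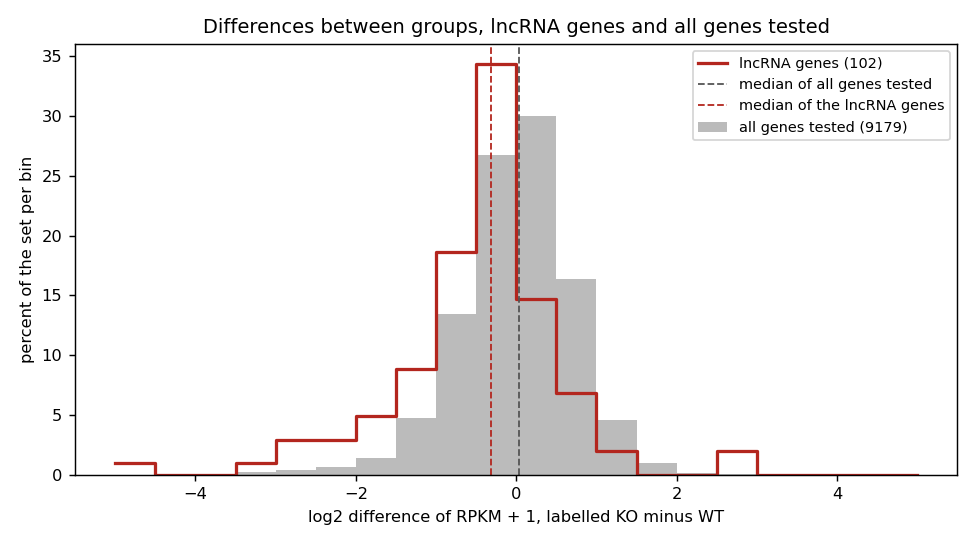
The percent of genes per bin of 0.5 is plotted against the log2 difference of RPKM + 1, KO-labelled libraries minus WT, for all 9179 genes tested (grey bars) and the 102 lncRNA genes (red line), with dashed lines at the medians. The red line lies to the left of the grey bars, with medians of -0.31 and 0.03.

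Gm26522 (chromosome 7, 88278787 to 88283529, minus strand), a lincRNA inside the span of the protease gene Ctsc on the other strand, had 103 and 107 reads in the WT pair and 18 and 41 in the KO-labelled pair. Its level was 128 ± 25.6 RPKM in WT and 22.7 ± 14.1 RPKM in the KO-labelled pair (SD, n = 2 each), 5.64 times lower. The groups did not overlap, and the WT libraries were at 110 and 146 RPKM. The log2 difference was -2.57 ± 0.53 (SE), 95% interval -3.78 to -1.36, with adjusted p = 0.343 in limma and 0.0230 in voom, and a range from -3.21 to -1.92 as each library was left out. Ctsc itself had 6 and 4 reads in the WT pair and 23 and 10 in the KO-labelled pair, not scaled to the libraries.

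Gm31804 (chromosome 14, 15770099 to 15791784, plus strand) held 39 and 200 reads in the WT pair and 24 and 9 in the KO-labelled pair. WT replicate 2 stood far above the rest, at 146 RPKM against 22.2 RPKM in WT replicate 1 and 9.07 and 3.82 RPKM in the KO-labelled pair. The log2 difference was -3.06 ± 0.80 (limma adjusted p = 0.442 and 0.0458 in voom), and it ranged from -4.39 without WT replicate 1 to -1.73 without WT replicate 2.

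U90926 (chromosome 5, 92209893 to 92215408, minus strand), protein-coding in GENCODE M21 and a lncRNA in RefSeq, had the largest increase among genes with at least 40 reads. It had 2 and 3 reads in the WT pair and 33 and 22 in the KO-labelled pair. U90926 thus met the limits on reads only through the KO-labelled pair, so its rank and p-values are a description and no independent support. The level was 6.05 ± 2.70 RPKM in WT and 39.8 ± 8.08 RPKM in the KO-labelled pair (SD, n = 2 each), 6.57 times higher, with both WT libraries at or below 3 reads. The log2 difference was 2.57 ± 0.46 (SE), 95% interval 1.53 to 3.61, unadjusted p = 0.000360 and limma adjusted p = 0.253. It ranged from 2.17 to 2.97 as each library was left out. AI506816 was the other increase named by rule beside Snhg1, with 17 and 47 reads in the WT pair and 105 and 85 in the KO-labelled pair (log2 difference 0.98 ± 0.57, from 0.14 without WT replicate 1 to 1.81 without WT replicate 2).

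The other decreases named by rule were 5031434O11Rik, Gm29408, Gm17276, Gm17494 and 4930422I22Rik. 5031434O11Rik had 14 and 30 reads in the WT pair and 6 and 12 in the KO-labelled pair (log2 difference -1.62 ± 0.55, from -2.28 without WT replicate 1 to -0.96 without WT replicate 2). Gm17276 had 21 and 16 reads in the WT pair and 10 and 8 in the KO-labelled pair (-1.46 ± 0.41), and its replicates were the closest of these genes. Gm17494, whose exons face those of Gclm on the other strand, had 101 and 29 reads in the WT pair and 38 and 20 in the KO-labelled pair (-1.44 ± 0.54, from -2.11 without WT replicate 2 to -0.78 without WT replicate 1). Gclm had 80, 169, 182 and 311 reads, which are not scaled to the libraries, so no group difference is read from them. 4930422I22Rik had 24, 26, 19 and 21 reads (-0.96 ± 0.43). The adjusted p-values of these 5 genes in limma lay between 0.461 and 0.536. Gm17494 was called in voom with a replicate block (adjusted p = 0.0180), a fit added after the data were seen.

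**Figure D5:**
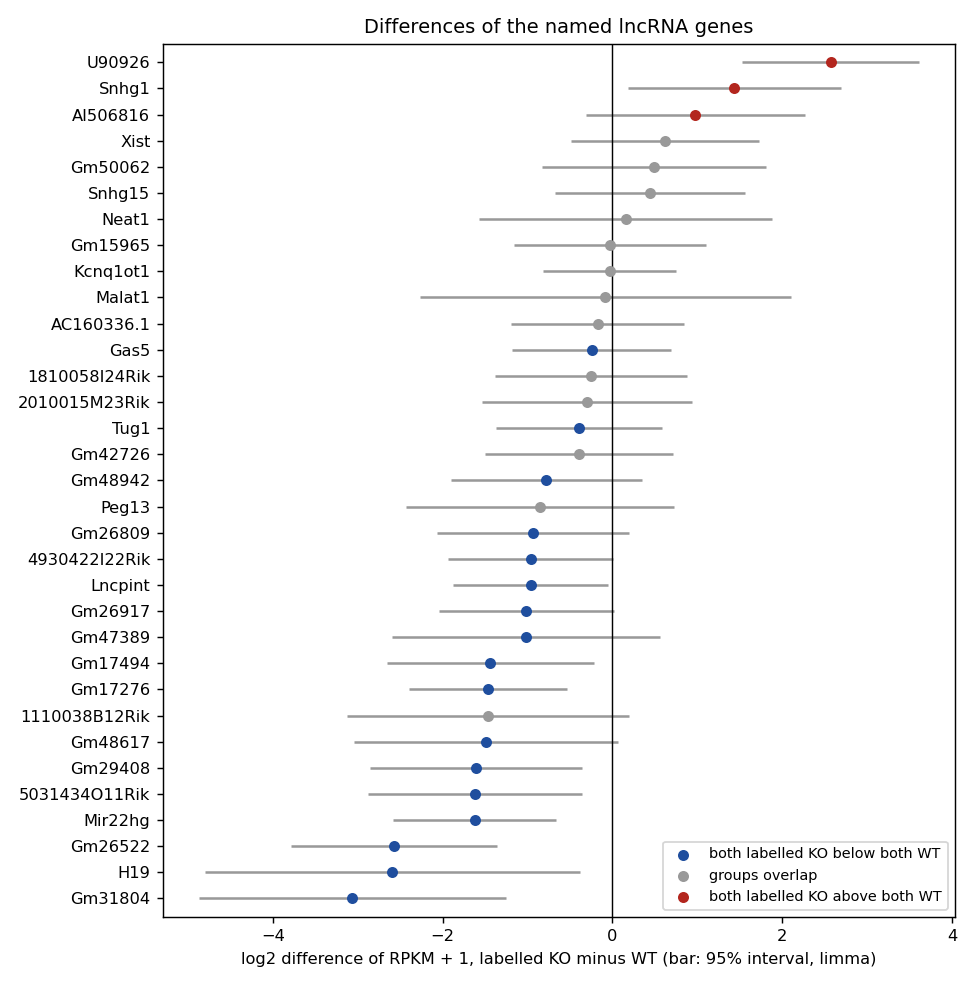
Points give the log2 difference of RPKM + 1, KO-labelled libraries minus WT, of the 33 lncRNA genes named by rule, with bars for the 95% interval of limma, coloured by whether both KO values lie below or above both WT values. U90926 and Snhg1 have intervals above 0, Gm31804, H19 and Gm26522 the lowest values, and Malat1 a wide interval around 0.

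The spread between libraries on these genes was described by a chi-square of their reads. This chi-square value divided by its degrees of freedom, near 1 where reads differ by sampling alone, was 29.2 between the WT libraries (60 genes with at least 20 reads in the pair) and 26.4 between the KO-labelled pair (60 genes). Without Malat1 it was 19.3 and 11.2, and over protein-coding genes, not matched for reads per gene, 6.94 and 5.28. Between groups it ran from 11.0, for WT 2 and KO 2, to 38.9, for WT 2 and KO 1. Across the 102 genes, which are not independent replicates and share gene length in their RPKM, Pearson's r of log2(RPKM + 1) was 0.81 between the WT libraries and 0.87 between the KO-labelled pair, and from 0.76 to 0.86 between groups. A single library held over 50% of the reads for 23 of the 102 genes, 12 of them in KO 1, 6 in WT 1, 3 in WT 2 and 2 in KO 2.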

How the data were processed

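Ribo-seq libraries of mouse primary myoblasts (WT and labelled eIF5A-KO, 2 each) were analysed. Per the study's methods, the authors treated cells with cycloheximide (10 min in the labels, 1 min in the design text), digested lysates with RNase I, removed rRNA and tRNA reads, aligned the rest with TopHat2 to Ensembl models (mm10/GRCm38) and counted with HTSeq. The strand setting was not given in the sources used here. The deposited values were RPKM, whose scale did not follow total reads: the reads that the scaling implies were 602863, 471136, 906990 and 807705.

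Reads were recovered here by taking RPKM times length over its lowest value above 0 in each library, and 100.0% of values came out whole within 0.05. Totals were 648386, 642429, 704006 and 650210 reads for WT 1, WT 2, KO 1 and KO 2. A floor of 3 reads per library equals 4.98, 6.37, 3.31 and 3.71 RPKM at 1 kb.

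The test was limma 3.58.1 in R 4.3.3 (variance trend, two-sided, Benjamini-Hochberg over 9179 genes with at least 20 reads) on log2(RPKM + 1), which understates low genes. It was tested on simulated data, with large changes set only in genes with many reads. That does not show how the test behaves on genes with few reads. The genes described and the gene lists were chosen with earlier results of these data known. Named were the 15 genes with the most reads, up to 6 decreases and 6 increases with at least 40 reads and groups apart (only 3 increases qualified), and up to 4 genes of each list. Others named were chosen after their values were seen. Sequence sharing used words of 28 bases of GENCODE M21 transcripts, on both strands. RefSeq entries were matched by symbol (47 of 102).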

Additional observations from a re-analysis of the deposited data

How the results depend on the processing

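With the replicate block, 1 lncRNA gene was called lower (Gm13782, 6, 13, 0 and 1 reads), against 0 as reported, and 0 higher, where 4 of 9179 genes were called lower. Gm13782 reached the threshold on reads almost only through the WT pair, so its call is no independent support. The replicate numbers are not described as paired: deviations from group means correlated between same-numbered libraries with r = 0.24 over the 102 genes and 0.11 over all genes tested. With voom 2 genes were called lower (38 of all genes), and with voom and the replicate block, an alternative added after seeing the data, 6 (5.88%, where 167 or 1.82% of all genes were lower and 21 higher): Gm31804, H19 (adjusted p = 1.17e-07), Gm26522, Gm17494 (0.0180), AC119181.3 and 1110038B12Rik (0.0357). The other alternatives with all 4 libraries gave 0 calls in either direction. With a library left out, where the lone library of an arm is assumed to vary like the other group, the calls ran from 0 to 1 higher and from 1 to 3 lower, (Gm31804, Gm13782 and AC119181.3 lower without WT 1, H19 and Gm34388 lower and U90926 higher without WT 2, Gm13782 lower without KO 1, Gm26522 and Gm13782 lower and Gm17024 higher without KO 2), while 15 to 29 of all genes were called lower and 2 to 17 higher, and the 3 higher and 14 lower genes past the fold criterion ran from 2 to 7 and from 14 to 24, both at their most without WT replicate 2 (6.86% and 23.5%, where 10.7% and 9.72% of all genes passed). At a mean RPKM of at least 1 (98 of the 102 genes tested) 1 higher gene passed (1.02%, beside 2.67% of all genes), on total reads 7 higher and 7 lower (6.86% each, beside 19.3% and 1.39%), and with at least 50 reads (51 tested) 8 lower (15.7%, beside 4.97%). The median log2 difference of -0.31 was -0.39 with a pseudocount of 0.1, -0.43 with voom, -0.35 with voom and the replicate block, -0.41 scaled to protein-coding reads and 0.14 scaled to total reads, and from -0.48 to -0.27 with a library left out. Leaving out the 12 genes that GENCODE M21 or RefSeq class as protein-coding, also added after seeing the data, left 90 genes, of which 2 higher (2.22%, beside 3.72% of all genes tested) and 13 lower (14.4%, beside 5.20%) passed the fold criterion. The difference in share of reads, -0.04 percentage points, ran from -0.28 to 0.21 with a library left out, and was positive without WT replicate 1 or KO replicate 2.

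On total reads, where the median of all genes moved from 0.03 to 0.52, the sign turned for Malat1 (0.53), AC160336.1 (0.34), Gm15965 (0.58), Gm42726 (0.22), 2010015M23Rik (0.31), Gas5 (0.35), 1810058I24Rik (0.32), Tug1 (0.059) and Kcnq1ot1 (0.032). Kcnq1ot1 was also 0.042 with voom and the replicate block. With a library left out the sign turned for Malat1 (-1.35 to 1.19), AC160336.1 (-0.50 to 0.16), Gm15965 (-0.28 to 0.22), Neat1 (-1.02 to 1.34), 2010015M23Rik (-0.91 to 0.32), Gm50062 (-0.19 to 1.17), 1810058I24Rik (-0.78 to 0.27), Snhg15 (-0.12 to 1.01), Peg13 (-2.02 to 0.32) and Kcnq1ot1 (-0.14 to 0.073). The other 20 named genes kept their sign in each fit. The cause was not tested.

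Of the genes, 51 had under 50 reads over the 4 libraries. The median standard error was 0.50 on the log2 scale, against 0.45 over all genes tested, and it was not set by reads alone: Malat1, with 4575 reads, had 0.96.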

Other observations

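Some lncRNA genes had nearly all of their reads in 1 library, and they were picked out after their values were seen. Gm34388 (chromosome 13) had 52 reads in WT replicate 1 and 0 in the other 3 libraries. AC119181.3 had 39 reads in WT replicate 2, 1 in KO 2 and 0 in the other libraries. Gm43846 had 24 and 1 reads in the WT pair and 33 and 1 in the KO-labelled pair, and Dancr, a lncRNA known for holding back differentiation, had 12, 2, 13 and 1, so that both were high in both replicate 1 libraries, as Malat1 was.

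A pair of genes near the threshold had 3 reads or fewer in 1 group. Gm13782 had 6 and 13 reads in the WT pair and 0 and 1 in the KO-labelled pair. Gm17024 had 2 and 0 reads in the WT pair and 18 and 3 in the KO-labelled pair, and both genes reached the threshold almost only through the group where they were high.

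Listed lncRNAs below the threshold were also looked up. None of the 9 Hox cluster lncRNAs in the table reached 20 reads, and the highest, Hotairm1 and Hoxa11os, had 3 each over the 4 libraries. Among snoRNA host genes, Snhg17 and Snhg8 had 16 and 15 reads and Snhg10 had 0. Sra1, listed for muscle, is classed in the table as protein-coding and had 27, 37, 97 and 42 reads.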
